A study of Homo sapiens with 4 samples.

Results

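The genes described here encode the structural proteins of the extracellular matrix: collagen chains, laminin chains and a set of matrix glycoproteins and proteoglycans. They were the rows of the count table named COL followed by a type and chain number, or LAM followed by a chain letter and number, together with SPP1, BGN, DCN, LUM, FN1, SPARC, HSPG2, AGRN, NID1, NID2, FBLN1, FBN1, TNC and THBS1, where at least 20 reads were counted over the 4 libraries. Of 42169 gene rows, 70 carried such a name and 45 reached 20 reads. Total RNA was sequenced from Huh7, a human hepatoma line, in control cell clone 1 (genotype WT) and in Brf1/TTP DKO cell clone 18, which lacks the RNA-binding proteins TTP (gene ZFP36) and BRF1 (here the product of ZFP36L1). All cells of both clones were kept in DMSO for 3 h before actinomycin D, a blocker of transcription, was added at 5 µg/ml for 10 min. Each clone gave 2 libraries. With 1 clone per genotype, clone and genotype cannot be told apart, and in a bulk sample a smaller number of expressing cells and less RNA per cell cannot be told apart either.

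Collagens are trimers of chains wound around each other, and the chain types decide whether the product forms fibrils, the sheet of a basement membrane or other assemblies. Laminins are trimers of an alpha, a beta and a gamma chain that build the basement membrane together with type IV collagen, nidogens, perlecan and agrin. In healthy liver the fibrillar collagens come mainly from stellate cells and portal fibroblasts, while hepatocytes secrete plasma fibronectin; hepatoma cells in culture make matrix of their own. TTP and BRF1 bind AU-rich elements in the 3′ UTR of mRNAs, with UAUUUAU as a preferred core, and recruit enzymes that shorten the poly(A) tail.

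Because these proteins act through that element, the longest annotated 3′ UTR of each gene (GENCODE release 29, hg38) was searched for UAUUUAU, and for the longer form UUAUUUAUU. Among the 42 genes tested for a difference between the clones, 15 held UAUUUAU (35.7%), against 36.1% of the 11888 tested genes with an annotated 3′ UTR. The longest 3′ UTR can belong to a shortened transcript. The FBN1 site, at 48642784, lies near the start of that minus-strand gene (48408306 to 48645849). The COL4A1 site, at 110242225, lies far from the end of its minus-strand gene (110148963 to 110307233). Both may thus be counted on sequence outside the main 3′ UTR. The longer form was present in 4 of the 42 (9.52%), against 9.38%. These 4 sites are shown first, followed by the site of COL11A1, which was lower in DKO. Capitals mark 1 UAUUUAU per stretch, and the coordinates are those of the bases printed. In COL2A1 the marked match, at position 209 of the 3′ UTR, overlaps another at position 205 whose first bases are in lower case.
COL2A1 (chr12:47973181-47973209, minus strand): gguguucuauuUAUUUAUugucuuccugu
THBS1 (chr15:39596502-39596530, plus strand): uaaauacagauUAUUUAUuaacucuguuc
COL3A1 (chr2:189011866-189011894, plus strand): aaaauuccaguUAUUUAUuuccaaaaugu
COL12A1 (chr6:75084362-75084390, minus strand): cugccuuauauUAUUUAUuucugaaacaa
COL11A1 (chr1:102877019-102877047, minus strand): aauuaagcaauUAUUUAUgaauuugugca

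Of the 45 genes, 42 had enough reads for the edgeR test (quasi-likelihood, adjusted over all 13359 genes tested), and 14 of them passed an adjusted p of 0.05. Among all genes tested 5.37% passed. SPP1, BGN and LAMA4 were higher in DKO, 3 of 42 against a background of 2.24%. Lower in DKO were 11 of 42, against a background of 3.14%, among them COL14A1, COL2A1, COL11A1, COL26A1, COL6A1, COL7A1, LAMA3, LAMB2, HSPG2 and TNC. The differences of SPP1, BGN and COL14A1 were known when the genes were chosen. Among the other 39 tested genes 11 passed (28.2%), 1 higher and 10 lower. The median log2 fold change (DKO over control) of the 42 genes was -0.43, against 0.0015 over all genes tested. COL11A1, TNC and COL24A1 reached the filter level of 0.878 CPM (a count divided by the library's gene total and scaled to 1000000) in both libraries of 1 clone only, so a difference was partly built into their being tested. The other 39 genes held 3 higher and 9 lower calls.

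**Figure D1:**
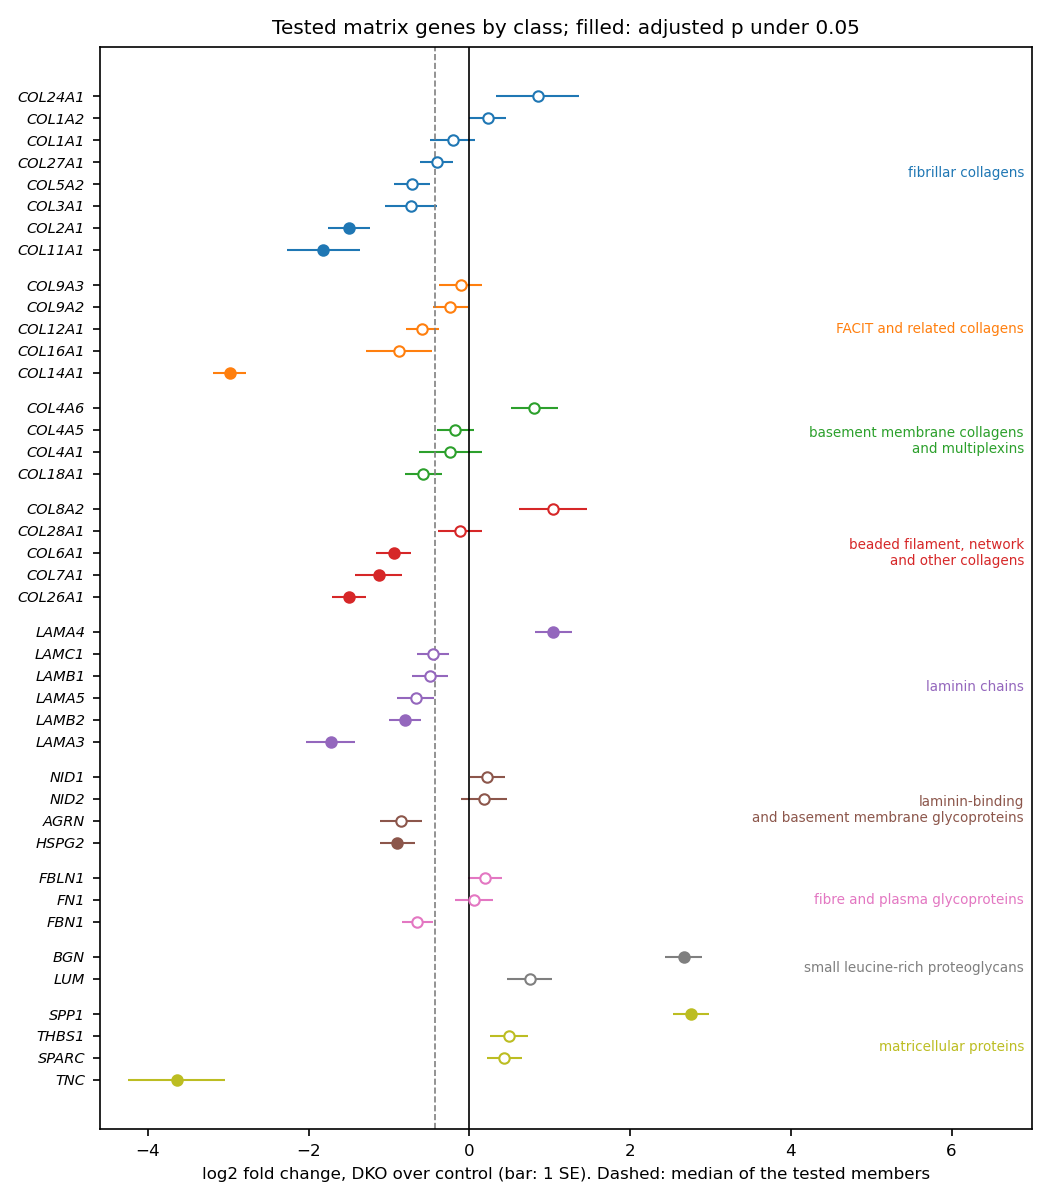
Log2 fold change of DKO over control for 41 of the 42 tested matrix genes (x axis), with bars of 1 SE, grouped by class and coloured by it; filled points passed an adjusted p of 0.05, and the dashed line is the median of the 42, at -0.43. The 3 filled points to the right of 0 are SPP1, BGN and LAMA4, and the 10 filled points to the left run from TNC at -3.64 to LAMB2 at -0.81.

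Promoter windows of 250 bases before to 50 after the annotated start (RefSeq, GRCh38.p14) were at hand for 10 of the 14 genes that passed. They were searched on both strands for short motifs; a match is a description of the letters and not a bound site. TGANTCA, the AP-1 site, was in 1 of the 10 windows, that of LAMA3, with 2 matches, against 7.71% of all 35116 windows. GGGCGG, the GC box, was in 7 of the 10, against 45.0% of all windows and 25 of the 34 windows (73.5%) of all tested matrix genes. TATAAA, the TATA box, was in 1 (11.5% of all windows). GGAATG, a TEAD site, was in none (14.0% of all windows), and so was the E-box CACGTG (7.26%). The window of LAMA3 is printed because it was the 1 window with TGANTCA and its start lies inside the annotated gene. Those of SPP1 and BGN belong to the genes with the highest fold changes. Capitals mark every match to a motif searched, and the SPP1 window held none.
LAMA3 (chr18:23872770-23873069, plus strand): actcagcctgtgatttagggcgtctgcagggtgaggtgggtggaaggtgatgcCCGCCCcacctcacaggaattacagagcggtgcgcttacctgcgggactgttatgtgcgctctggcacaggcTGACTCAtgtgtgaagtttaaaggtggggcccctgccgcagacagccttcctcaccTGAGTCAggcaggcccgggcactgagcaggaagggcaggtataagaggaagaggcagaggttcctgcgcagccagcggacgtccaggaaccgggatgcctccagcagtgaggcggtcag
SPP1 (chr4:87975464-87975763, plus strand): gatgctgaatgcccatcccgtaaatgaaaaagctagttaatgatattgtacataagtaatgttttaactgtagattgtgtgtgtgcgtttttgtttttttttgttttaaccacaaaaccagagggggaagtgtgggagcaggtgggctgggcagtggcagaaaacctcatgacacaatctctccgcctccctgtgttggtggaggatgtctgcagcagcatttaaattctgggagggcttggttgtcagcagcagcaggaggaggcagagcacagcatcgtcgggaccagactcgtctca
BGN (chrX:153494730-153495029, plus strand): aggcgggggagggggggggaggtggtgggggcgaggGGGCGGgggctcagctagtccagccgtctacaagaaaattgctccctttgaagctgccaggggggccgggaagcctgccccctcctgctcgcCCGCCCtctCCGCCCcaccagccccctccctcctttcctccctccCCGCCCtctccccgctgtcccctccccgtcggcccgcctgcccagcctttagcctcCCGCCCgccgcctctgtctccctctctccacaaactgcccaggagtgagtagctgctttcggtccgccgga

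Counts on genes ran from 9685798 to 16430228 per library, and 3 counts corresponded to 0.183 to 0.310 CPM. All 11 markers of hepatocytes and hepatoma cells were detected, with summed levels of 27262 to 28164 CPM in control and 26003 to 29327 CPM in DKO. Within that list AFP, the alpha-fetoprotein of hepatoma cells, was lower in DKO at -1.13 (SE 0.25, adjusted p = 0.0159 in edgeR), TTR, the transthyretin of plasma, was higher at 0.78 (SE 0.20, adjusted p = 0.0297 in edgeR), and 9 did not pass. Of 10 stellate cell and fibroblast markers, DES, LRAT, PDPN and FAP had no count and ACTA2 and THY1 had at most 1 per library. The other 4, led by TAGLN and PDGFRB, brought the sum of the list to 56.9 and 77.8 CPM in control and 70.8 and 87.5 CPM in DKO, and none of them passed. Of 7 endothelial markers 6 had no count and TEK had 1 in all. The leukocyte list of 6 was carried by LYZ, with CD163 and CSF1R at 0 and sums of 75.5 to 77.1 CPM in control and 108 to 124 CPM in DKO; its part in the results was not tested. The mRNAs of the genes named in the genotype did not pass, with ZFP36 at 0.48 (SE 0.21, adjusted p = 0.207 in edgeR) and ZFP36L1 at 0.13 (SE 0.20, adjusted p = 0.775 in edgeR); the kind of mutation was not stated, so these levels do not check the genotype.

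The control libraries differed from each other in these genes. Of the 42 tested genes 83.3% were higher in control 2 than in control 1, against 44.6% of all genes tested. The matrix genes also had longer exons (median 8586 bases, against 4932 over all genes tested with a known length and GC content) and a higher GC content (52.1% against 47.9%). Removing trends over exon length and GC content was a step chosen after seeing the data. In that fit the median of the 42 genes was -0.12 and 12 of the 14 calls remained. In all 16 of the 42 passed, 4 higher and 12 lower. Over all genes tested 2039 of 13359 passed in that fit, against 718 in the main fit. Passing was thus far more common there for any gene. HSPG2 was then at -0.44 (adjusted p = 0.0750, edgeR) and COL7A1 at -0.73 (adjusted p = 0.0604, edgeR), and neither passed. Without control replicate 2 the median of the tested matrix genes was -0.22, and without control replicate 1 it was -0.66. It was -0.46 without DKO replicate 1 and -0.44 without DKO replicate 2. In these 4 fits the median of all genes tested lay between -0.0092 and 0.012. COL14A1, COL2A1, COL26A1, LAMA3, TNC, SPP1 and BGN were among the genes that passed in all 4 fits that left out 1 library. Of these, TNC reached the filter level in the control libraries only.

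Among fibrillar collagens 8 of 11 were tested, with 0 higher, 2 lower and 6 not passed. COL2A1 (chromosome 12, 47972965 to 48004554), the chain of type II collagen, best known from cartilage, had 752 and 1283 CPM in the control libraries and 334 and 385 CPM in the DKO libraries. Both DKO libraries lay below both control libraries, and the control libraries were far apart. The mean was 2.83-fold lower in DKO, a log2 fold change of -1.50 (SE 0.26, adjusted p = 0.00429 in edgeR), and it ranged from -1.86 to -1.03 when 1 library was left out. COL11A1 (chromosome 1, 102876467 to 103108872), a minor chain of the same cartilage fibrils, was sparse, with 19 and 32 counts in control and 6 and 11 in DKO. Its log2 fold change was -1.82 (SE 0.46, adjusted p = 0.0304 in edgeR). DESeq2 did not call it (adjusted p = 0.168). It did not pass without control replicate 2 (-1.57, adjusted p = 0.138), DKO replicate 1 (-1.72, adjusted p = 0.253) or DKO replicate 2 (-1.96, adjusted p = 0.265) in edgeR.

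COL5A2 (chromosome 2, 189031896 to 189225312), a chain of the type V collagen that starts fibrils, had a level per exon length of 148 CPM per kb in control and 89.2 in DKO, beside 153 and 53.9 for COL2A1. COL2A1 was thus slightly above COL5A2 in the control mean, though not in control replicate 1, and below it in DKO. COL5A2 had 993 and 1206 CPM in the control libraries and 672 and 658 CPM in the DKO libraries. The clones did not overlap, and the log2 fold change of -0.72 (SE 0.22, adjusted p = 0.0752 in edgeR) missed the threshold in edgeR. DESeq2 called it (-0.73, DESeq2 adjusted p = 0.0134), as did the fit with GC and length trends removed (-0.67, adjusted p = 0.0235, edgeR). COL1A2, a chain of the abundant type I collagen, had 67.2 and 109.8 CPM in the control libraries and 101 and 106 CPM in the DKO libraries, and the clones overlapped. Its partner COL1A1 was far lower on the scale per length, at 0.692 against 8.60 CPM per kb. The log2 fold changes of COL1A2 and COL1A1 were 0.23 (SE 0.23, adjusted p = 0.638 in edgeR) and -0.21 (SE 0.28, adjusted p = 0.739 in edgeR).

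COL3A1, the type III collagen chain, lies next to COL5A2 on chromosome 2, with 19149 bases between the genes. It had 4.75 and 7.84 CPM in control and 3.21 and 4.32 CPM in DKO, a log2 fold change of -0.73 (SE 0.33, adjusted p = 0.227 in edgeR). Both neighbours had values below 0, while the 50 nearest tested genes around each had medians of 0.30 and 0.33. COL27A1 (-0.41) and COL24A1 (0.85), a pair of short-fibril collagens, did not pass either.

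The collagens that attach to fibril surfaces (the FACIT class) held the widest difference among collagens. COL14A1 (chromosome 8, 120059780 to 120372036), which binds to the surface of fibrils, had 306 and 307 CPM in the control libraries and 38.2 and 38.7 CPM in the DKO libraries. The libraries of each clone were nearly equal, and the mean was 7.96-fold lower in DKO. Its log2 fold change was -2.98 (SE 0.20) and stayed between -3.02 and -2.95 when 1 library was left out. The 50 nearest tested genes around it had a median of -0.37. Of the other 4 tested genes of the class none passed, and all had values below 0. COL12A1, the close relative of COL14A1, had 55.5 and 61.0 CPM in the control libraries and 43.1 and 34.4 CPM in the DKO libraries, with no overlap between the clones and a log2 fold change of -0.58 (SE 0.20, adjusted p = 0.108 in edgeR). With GC and length trends removed it passed (-0.53, adjusted p = 0.0267, edgeR). COL9A2 and COL9A3, chains of type IX collagen, differed by -0.24 and -0.11, the libraries of the clones overlapped for both, and the third chain of that trimer, COL9A1, had 2 counts in all. COL16A1 differed by -0.87 (SE 0.41, adjusted p = 0.247 in edgeR).

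Of 5 tested genes among the remaining collagens 3 were lower in DKO. COL26A1 (chromosome 7, 101362820 to 101559024), a small secreted collagen, had 73.5 and 92.2 CPM in the control libraries and 26.8 and 31.3 CPM in the DKO libraries. The clones did not overlap, the mean was 2.85-fold lower in DKO, and the log2 fold change was -1.50 (SE 0.21, adjusted p = 0.000849 in edgeR). COL6A1 (chromosome 21, 45981737 to 46005050), a chain of the beaded filaments of type VI collagen, had 61.0 and 84.0 CPM in the control libraries and 34.8 and 40.4 CPM in the DKO libraries, a log2 fold change of -0.94 (SE 0.22, adjusted p = 0.0213 in edgeR). It did not pass without control replicate 2 (-0.66, adjusted p = 0.0604), DKO replicate 1 (-0.82, adjusted p = 0.316) or DKO replicate 2 (-1.08, adjusted p = 0.0981) in edgeR. COL6A2, its neighbour 93046 bases away on chromosome 21, had only 26 counts over the 4 libraries, COL6A3 had 1, and COL6A1 made up 98.8% to 99.2% of the type VI chain level per length in every library.

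COL7A1 (chromosome 3, 48564073 to 48595267), the collagen of anchoring fibrils under epithelia, had 7.74 and 9.91 CPM in the control libraries and 4.77 and 3.41 CPM in the DKO libraries, a log2 fold change of -1.13 (SE 0.29, adjusted p = 0.0363 in edgeR). DESeq2 did not call it (adjusted p = 0.0797). It did not pass without control replicate 2 (-0.91, adjusted p = 0.107), DKO replicate 1 (-1.35, adjusted p = 0.0750) or DKO replicate 2 (-0.91, adjusted p = 0.403) in edgeR. Its 50 nearest tested genes had a median of -0.64, the lowest around the called genes with such a value (COL6A1, near a chromosome end, has none). LAMB2, described with the laminins, lies on the same stretch of chromosome 3 with a neighbour median of -0.59. COL8A2 (1.04) and COL28A1 (-0.11) did not pass.

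No type IV collagen chain passed. COL4A5 (chromosome X, 108439844 to 108697545) and COL4A6 (chromosome X, 108155607 to 108439497), chains of specialised basement membranes, lie head to head on chromosome X with 346 bases between them. COL4A5 had 36.4 and 56.8 CPM in the control libraries and 42.8 and 39.9 CPM in the DKO libraries, and the clones overlapped. COL4A6 had 4.85 and 7.36 CPM in the control libraries and 12.7 and 9.07 CPM in the DKO libraries, so that both DKO libraries were above both control libraries, with a log2 fold change of 0.81 (SE 0.29, adjusted p = 0.124 in edgeR). Of the type IV chain level per length, COL4A5 made up 81.3% and 82.1% in control and 69.5% and 73.2% in DKO, and COL4A6 13.4% and 14.0% in control and 21.3% and 26.3% in DKO. COL4A1, a chain of the common basement membrane network, had 21 and 56 counts in control and 24 and 54 in DKO. COL4A2, its usual partner, whose annotated gene overlaps that of COL4A1 by 1422 bases on the opposite strand, was listed at 0 in all 4 libraries. COL4A2 thus adds nothing to the type IV shares above, which would change if reads of these chains were lost in the counting. COL18A1, which carries the endostatin fragment, had 409 and 607 CPM in the control libraries and 319 and 360.1 CPM in the DKO libraries and differed by -0.58 (SE 0.23, adjusted p = 0.167 in edgeR). That value was -0.16 with GC and length trends removed and -0.23 without control replicate 2. Of its exon bases 16.4% overlap SLC19A1 on the other strand, and nothing in the sources says whether the counting kept strands apart.

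Other chains at 0 in every library were COL5A1, the major partner of COL5A2, and LAMA1, LAMC3, COL8A1, COL10A1, COL13A1, COL15A1, COL20A1, COL22A1, COL23A1, COL25A1 and COL6A5. A count of 0 allows up to 3 counts, or 0.183 to 0.310 CPM by library, for counting error only. How reads over overlapping genes or with several matches were assigned is not known, so a listed 0 may also come from the counting. In all, 13 of the 70 names were at 0 and 12 had between 1 and 19 counts. Just inside the limit of 20 counts were COL11A2 with 25 and COL6A2 with 26, and just outside it COL21A1 and LAMB4 with 13 each.

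Of 7 tested laminin chains 1 was higher, 3 were lower and 3 did not pass. LAMA3 (chromosome 18, 23689443 to 23956222), the alpha chain of the epithelial laminin-332, had 8.57 and 13.8 CPM in the control libraries and 3.41 and 3.35 CPM in the DKO libraries. Both DKO libraries lay below both control libraries. The mean was 3.30-fold lower in DKO, with a log2 fold change of -1.73 (SE 0.31, adjusted p = 0.00458 in edgeR), and the call held in every fit tried. LAMB3, the beta chain of that trimer, had 3 and 11 counts in control and 3 and 11 in DKO, and was too sparse to be tested.

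LAMA4 (chromosome 6, 112108760 to 112254939), the alpha chain of vascular and mesenchymal laminins, had 9.60 and 8.63 CPM in the control libraries and 19.1 and 18.3 CPM in the DKO libraries. Both DKO libraries were above both control libraries, and the mean was 2.05-fold higher. The log2 fold change was 1.05 (SE 0.23, adjusted p = 0.0173 in edgeR). It lost its call without DKO replicate 1 (1.04, adjusted p = 0.125, edgeR) and without DKO replicate 2 (1.06, adjusted p = 0.134, edgeR), while the value itself stayed between 0.99 and 1.08.

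LAMB2 (chromosome 3, 49121114 to 49133118), the beta chain of muscle and kidney laminins, had 92.3 and 113 CPM in the control libraries and 60.6 and 56.2 CPM in the DKO libraries, a log2 fold change of -0.81 (SE 0.20, adjusted p = 0.0294 in edgeR). It did not pass without control replicate 2 (-0.63, adjusted p = 0.0807), DKO replicate 1 (-0.84, adjusted p = 0.291) or DKO replicate 2 (-0.77, adjusted p = 0.359) in edgeR. LAMA5, LAMB1 and LAMC1, the chains of the common laminin-511, did not pass. LAMA5 had 464 and 679.6 CPM in the control libraries and 387 and 332 CPM in the DKO libraries, a log2 fold change of -0.67 (SE 0.23, adjusted p = 0.109 in edgeR), which was -0.18 with GC and length trends removed and -0.33 without control replicate 2. LAMB1 and LAMC1 differed by -0.49 (SE 0.23, adjusted p = 0.242 in edgeR) and -0.45 (SE 0.20, adjusted p = 0.218 in edgeR). For LAMA5, LAMB1 and LAMC1 alike, both DKO libraries were below both control libraries, which held for 26.2% of all genes tested.

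On the scale per exon length, LAMA5 made up 95.8% and 96.6% of the alpha chain level in control and 92.8% and 93.5% in DKO. LAMA4 made up 1.51% and 2.45% in control and 5.69% and 6.30% in DKO, and LAMA3 1.72% and 1.90% in control and 0.801% and 0.911% in DKO. LAMB1 led the beta chains with 85.5% to 88.7%, ahead of LAMB2 with 13.0% and 14.4% in control and 11.02% and 11.4% in DKO. LAMA5 and LAMB1 were the leading alpha and beta chains in every library. LAMA4 was above LAMA3 in control replicate 1 and below it in control replicate 2, and it was above LAMA3 in both DKO libraries. These shares come from the same counts as the fold changes.

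**Figure D2:**
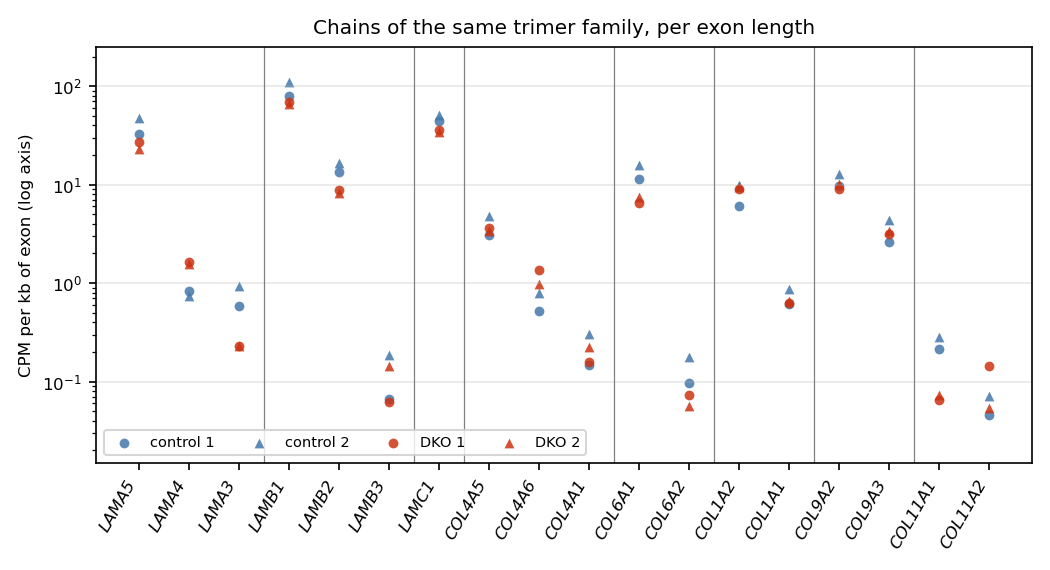
Level of laminin and collagen chains in each of the 4 libraries as CPM per kb of exon (log y axis), with grey lines between chain families; blue is control and red DKO, circles are replicate 1 and triangles replicate 2. LAMA5, LAMB1 and LAMC1 are the highest of the laminin chains shown in every library, and COL6A2 lies far below COL6A1 in all 4.

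Of the 4 glycoproteins that bind laminin in the basement membrane 1 was lower and 3 did not pass. HSPG2 (chromosome 1, 21822245 to 21937297), which encodes the proteoglycan perlecan, had 933 and 1115 CPM in the control libraries and 573 and 522 CPM in the DKO libraries, a log2 fold change of -0.90 (SE 0.22, adjusted p = 0.0282 in edgeR). It did not pass without control replicate 2 (-0.73, adjusted p = 0.0763), DKO replicate 1 (-0.94, adjusted p = 0.203) or DKO replicate 2 (-0.85, adjusted p = 0.276) in edgeR. Of its exon bases 11.7% overlap LDLRAD2 on the other strand. AGRN, which encodes agrin, had 603 and 1017 CPM in the control libraries and 416 and 479 CPM in the DKO libraries. Its clones did not overlap, and its value of -0.85 (SE 0.26, adjusted p = 0.0683 in edgeR) missed the threshold, with the control libraries far apart. DESeq2 called it (-0.86, DESeq2 adjusted p = 0.0277), while the value was -0.38 (adjusted p = 0.133 in edgeR) with GC and length trends removed and -0.39 (adjusted p = 0.477 in edgeR) without control replicate 2. NID1, the nidogen that links laminin to type IV collagen, had 1020.0 and 1081 CPM in the control libraries and 1282 and 1156 CPM in the DKO libraries, with no overlap and a log2 fold change of 0.22 (SE 0.22, adjusted p = 0.621 in edgeR). NID2 differed by 0.18 (SE 0.29, adjusted p = 0.784 in edgeR), with the reservation that 29.96% of its exon bases overlap RTRAF on the other strand.

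FN1, which encodes fibronectin, had the highest mean level per exon length of these genes in both clones, at 252 CPM per kb in control and 261 in DKO, followed by NID1 (179 and 208). THBS1 came next in DKO (151), but in control (108) it was below COL2A1 and COL5A2. Fibronectin mRNA had 4409 and 4329 CPM in the control libraries and 4803 and 4222 CPM in the DKO libraries. The clones overlapped and the log2 fold change was 0.06 (SE 0.24, adjusted p = 0.928 in edgeR). FN1 took 28.3% to 34.6% of the counts of the 45 genes in control and 36.7% to 40.0% in DKO. All 45 genes together took 1.28% and 1.53% of gene counts in control and 1.15% and 1.20% in DKO. FBN1, the fibrillin of microfibrils, had 70.8 and 70.0 CPM in the control libraries and 48.7 and 40.8 CPM in the DKO libraries, lower in both DKO libraries with a log2 fold change of -0.65 (SE 0.19, adjusted p = 0.0652 in edgeR). It passed with GC and length trends removed (-0.55, adjusted p = 0.0121, edgeR). FBLN1, a fibulin of elastic fibres and plasma, overlapped between the clones (0.20).

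Beside LAMA4, the genes higher in DKO were a matricellular protein, a class that signals to cells rather than building fibres, and a small leucine-rich proteoglycan. SPP1 (chromosome 4, 87975650 to 87983426), which encodes osteopontin, a secreted integrin and CD44 ligand, had 8.16 and 8.95 CPM in the control libraries and 52.7 and 62.6 CPM in the DKO libraries. Its DKO mean was 6.73 times the control mean, with a log2 fold change of 2.76 (SE 0.23). BGN (chromosome X, 153494939 to 153509554), which encodes the proteoglycan biglycan, had 8.67 and 7.04 CPM in the control libraries and 45.8 and 52.5 CPM in the DKO libraries. Its mean was 6.26-fold higher, a log2 fold change of 2.66 (SE 0.23). When 1 library was left out, SPP1 stayed between 2.61 and 2.90 and BGN between 2.54 and 2.78. Their 50 nearest tested genes had medians of 0.12 and 0.00, and neither 3′ UTR held UAUUUAU (530 and 1109 bases).

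LUM, which encodes lumican and belongs to the same proteoglycan family as BGN, had 9.60 and 7.20 CPM in the control libraries and 17.4 and 10.8 CPM in the DKO libraries. Both DKO libraries were above both control libraries, and the value of 0.75 (SE 0.28, adjusted p = 0.135 in edgeR) did not pass. DCN, the decorin gene of that family, had 5 counts in all. THBS1, which encodes thrombospondin-1, an activator of latent TGF-beta, had 865 and 1109.9 CPM in the control libraries and 1276 and 1496 CPM in the DKO libraries. It was higher in both DKO libraries with a value of 0.50 (SE 0.24, adjusted p = 0.254 in edgeR), which did not pass. SPARC, a collagen-binding secreted protein, had 16.1 and 15.4 CPM in the control libraries and 20.7 and 21.4 CPM in the DKO libraries, a value of 0.43 (SE 0.22, adjusted p = 0.282 in edgeR).

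TNC (chromosome 9, 115019578 to 115118257), which encodes tenascin-C, was lower in DKO, unlike SPP1. It had 22 and 22 counts in control and 1 and 3 in DKO. The rate per library total was 13.2-fold lower in DKO, with an exact 95% interval of 4.82 to 50.7 that covers counting error only. The log2 fold change was -3.64 (SE 0.61, adjusted p = 0.00298 in edgeR) and ranged from -4.22 to -3.35 when 1 library was left out. TNC reached the filter level in the control libraries only, so a difference was partly built into its being tested. With so few reads the size of the difference is poorly set.

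**Figure D3:**
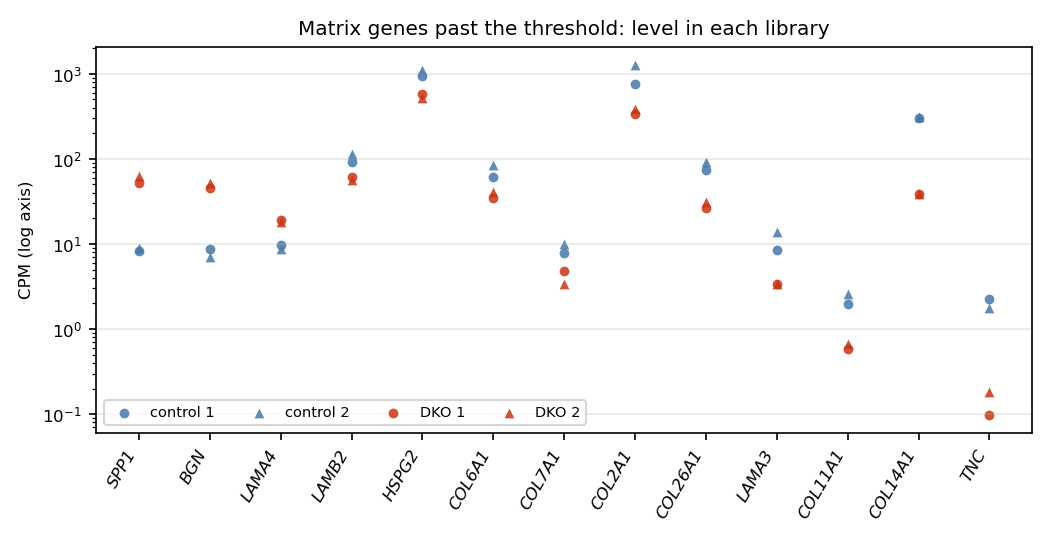
CPM in each of the 4 libraries (log y axis) for 13 of the 14 matrix genes past the threshold, ordered by log2 fold change; blue is control and red DKO, circles are replicate 1 and triangles replicate 2. The clones do not overlap for any of the 13, but these genes were chosen by calls on the same counts. Of all genes tested 49.9% do not overlap. The spread between control libraries is widest for COL2A1 and LAMA3.

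In 34 of the 42 tested genes (81.0%) both libraries of 1 clone lay above both of the other, 11 higher and 23 lower in DKO, against 49.9% of all genes tested (23.7% higher and 26.2% lower). A comparison of 2 libraries with 2 cannot give an exact 2-sided permutation p under 0.333 for a single gene, so each call depends on spread that edgeR estimates over many genes. With ERCC spike-in totals as library sizes the median of all genes shifted by -0.68, and directions here are relative to the median gene. On that scale SPP1 (2.05) and BGN (1.99) stayed higher and called, LAMA4 had 0.38 and was not called, and 8 genes were called lower. HSPG2 (-1.60), LAMB2 (-1.51) and COL6A1 (-1.69) were not called on it, with adjusted p-values of 0.110, 0.105 and 0.0571 in edgeR.

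**Figure D4:**
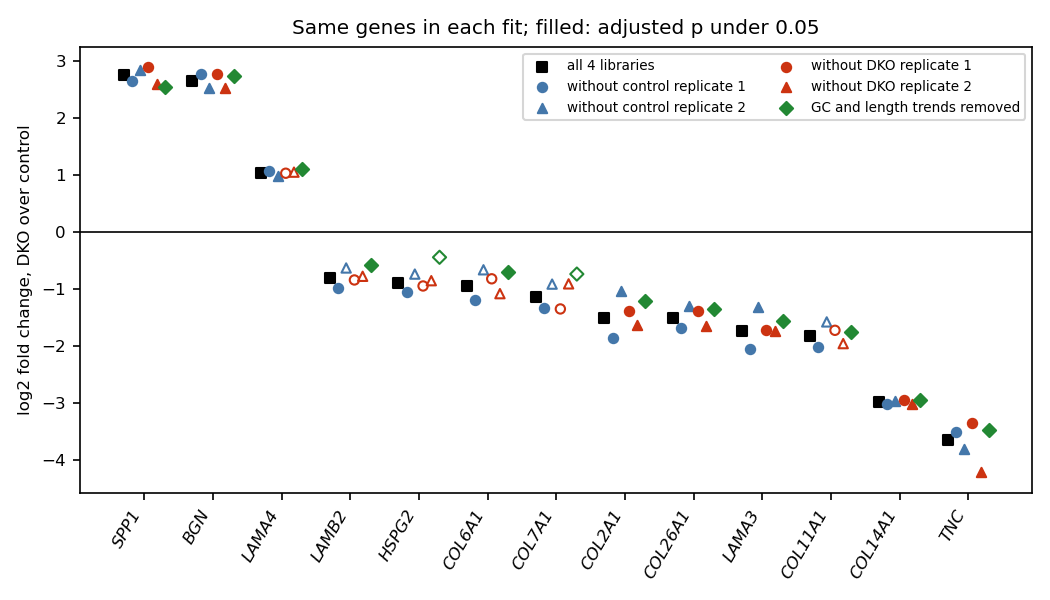
Log2 fold change of 13 of the 14 called matrix genes (y axis) with all 4 libraries, in the 4 fits that left out 1 library and with GC and length trends removed; filled points passed an adjusted p of 0.05. SPP1, BGN, COL2A1, COL26A1, LAMA3, COL14A1 and TNC are filled in every fit shown, while LAMA4, LAMB2, HSPG2, COL6A1, COL7A1 and COL11A1 are open in some.

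The AU-rich motif was set beside these values. None of the 3 genes higher in DKO held UAUUUAU, 3 of the 11 lower genes did (COL2A1 and COL11A1 among them), and 12 of the 28 that did not pass did. The median log2 fold change was -0.45 over the 15 genes with the motif and -0.41 over the 27 without it. The genes with the motif had longer 3′ UTRs (median 1818 against 1071 bases). Of the 4 genes with UUAUUUAUU, COL2A1 was lower, THBS1 had a value above 0, COL3A1 and COL12A1 had values below 0, and the last 3 did not pass. The search covers annotated sequence only and says nothing of binding.

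**Figure D5:**
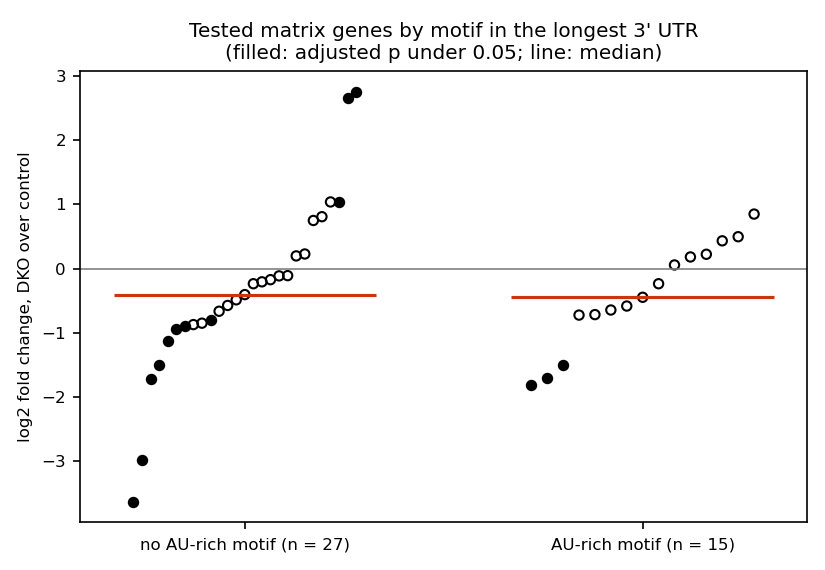
Log2 fold change of the 42 tested matrix genes (y axis), split by whether the longest annotated 3′ UTR holds the AU-rich heptamer; each point is a gene, filled where the adjusted p was under 0.05, spread along x by rank, and red lines are medians. The medians are -0.41 over 27 genes and -0.45 over 15, and the 3 filled points above 0 are all in the group without the motif.

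Genes that process, bind or cleave the matrix were counted in the same way, on lists fixed with earlier results known. Of 33 genes for collagen folding, modification and crosslinking 30 were tested, with 0 higher, 2 lower and 28 not passed (6.67%, where 5.37% of all genes passed; median -0.17). P3H3, a prolyl 3-hydroxylase family member, had 13.8 and 17.1 CPM in the control libraries and 5.55 and 5.78 CPM in the DKO libraries, a log2 fold change of -1.44 (SE 0.26, adjusted p = 0.00459 in edgeR), with a neighbour median of -0.42. LOXL1, a lysyl oxidase that crosslinks elastin, was sparse, with 11 and 12 counts in control and 0 and 2 in DKO. It reached the filter level in the control libraries only, so a difference was built into its being tested. Its call (-3.62, edgeR adjusted p = 0.0185) did not hold without DKO replicate 1 (-2.97, adjusted p = 0.210, edgeR) or DKO replicate 2 (-6.51, adjusted p = 0.0972, edgeR).

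Of 23 tested matrix receptors 1 was higher, 1 lower and 21 did not pass (8.70%, median 0.02). DDR1, a collagen receptor kinase, had 7.64 and 9.91 CPM in the control libraries and 18.9 and 17.8 CPM in the DKO libraries and rose by 1.06 (SE 0.25, adjusted p = 0.0213 in edgeR) on the log2 scale. DAG1, which encodes the laminin receptor dystroglycan, had 216 and 213 CPM in the control libraries and 102 and 97.5 CPM in the DKO libraries, a log2 fold change of -1.10 (SE 0.19, adjusted p = 0.00352 in edgeR). DAG1 lies on chromosome 3 (about 49468700 to 49535600, rounded), on the same stretch as COL7A1 and LAMB2, with a neighbour median of -0.34. Left without DKO replicate 1, DDR1 had an adjusted p of 0.125 and DAG1 of 0.0750; without DKO replicate 2 these were 0.115 and 0.0813 (edgeR). With ERCC totals DDR1 was at 0.35 (adjusted p = 0.623 in edgeR) and DAG1 at -1.78 (adjusted p = 0.0477 in edgeR).

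Of 24 tested matrix proteases and inhibitors 3 were higher, 2 lower and 19 did not pass (20.8%, median -0.14). TIMP1, an inhibitor of metalloproteinases, had 7.54 and 10.8 CPM in the control libraries and 16.9 and 25.7 CPM in the DKO libraries and rose by 1.23 (SE 0.28, adjusted p = 0.0185 in edgeR) on the log2 scale, and CTSB, a lysosomal protease, rose by 0.81 (SE 0.20, adjusted p = 0.0271 in edgeR). The membrane metalloproteinases MMP14 and MMP16 were lower, at -0.79 (SE 0.21, adjusted p = 0.0437 in edgeR) and -0.75 (SE 0.21, adjusted p = 0.0497 in edgeR). The neighbour medians were -0.38 for MMP14, -0.29 for MMP16 and 0.01 for TIMP1, and CTSB has no such value. Without DKO replicate 2 the adjusted p-values of these 4 genes ran from 0.311 to 0.465 in edgeR. CTSB, MMP14 and MMP16 also did not pass without DKO replicate 1 (adjusted p = 0.109, 0.356 and 0.305 in edgeR). The same held for MMP14 without control replicate 2 (adjusted p = 0.234 in edgeR) and MMP16 without control replicate 1 (adjusted p = 0.118 in edgeR). limma-voom called neither MMP14 nor MMP16. With ERCC totals TIMP1 (0.45), CTSB (0.10), MMP14 (-1.52) and MMP16 (-1.37) did not pass, with adjusted p-values of 0.534, 0.896, 0.105 and 0.146 in edgeR.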

How the data were processed

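For 4 libraries the authors deposited whole-number read counts per gene, without normalization. According to the submitters' processing notes, STAR 2.5.3a, Subread 1.6.3 (featureCounts) and DESeq2 were used with hg38; the annotation, strand setting and treatment of multi-mapping reads are not stated. The 92 ERCC rows were left out of library sizes. edgeR 4.0.16 in R 4.3.3 tested DKO against control (filterByExpr, TMM factors, quasi-likelihood test, group as the only term, Benjamini-Hochberg over 13359 genes); the code was checked on simulated data. The SE given with edgeR values was derived from the test itself, as the absolute log2 fold change over the square root of its F statistic. Alternatives were DESeq2 1.42.0, limma-voom (limma 3.58.1), RLE factors, no filter, ERCC totals, a block for the replicate number and leaving out each library. Removal of GC and length trends (loess per library) was added after seeing the data. Members and lists were chosen with earlier results of these data known. Named genes are those past the threshold, those with a mean of at least 10 CPM, those sharing a locus, those nearest the 20-count limit and every gene that passed on another list. A few genes that the rule names are counted but not reported singly here. Some sparse or weakly expressed chains were named after their values were seen. Exons, positions and 3′ UTRs are from GENCODE 29, in which 40718 rows matched 1 gene; RefSeq promoter windows were found for 34 of the 45 genes. Separate cultures are not recorded for the libraries, so the p-values describe variation among libraries that may be technical. Libraries of 1 clone differed beyond counting noise (chi-square per degree of freedom 33.6 for control and 27.1 for DKO). Reads had no molecular identifiers, so intervals cover counting error only.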

Additional observations from a re-analysis of the deposited data

How the results depend on the processing

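Over all genes 718 passed the edgeR threshold, and 14 of the 42 matrix genes. Without the filter on low counts 1194 genes passed, with ERCC totals 329 (22 higher and 307 lower, so that higher calls made up 6.69% of all calls against 41.6%), and with GC and length trends removed 2039. When 1 library was left out, the number ranged from 218 (without DKO replicate 2) to 2172 (without control replicate 1), and among matrix genes from 8 to 24. The labels give both clones replicate numbers 1 and 2 and nothing that pairs them; with the replicate number as a block 4021 genes and 30 matrix genes (8 higher, 22 lower) passed, and with the block and GC and length trends removed 4175 and 28. Deviations of same-numbered libraries from their clone means correlated with r = 0.507. RLE factors, DESeq2 and limma-voom each called 14 matrix genes, the unfiltered fit 18 and ERCC totals 10.

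Among the 42 tested matrix genes signs changed for 12 under some alternative, none of which had passed. With ERCC totals the log2 fold changes were -0.53 for COL1A2, -0.54 for FBLN1, -0.62 for FN1, -0.46 for NID1, -0.50 for NID2, -0.25 for SPARC and -0.24 for THBS1. With GC and length trends removed COL9A3 was at 0.21, COL1A1 at 0.12 and COL4A1 at 0.047, and with the block as well they were at 0.20, 0.11 and 0.045. Leaving out 1 library moved COL1A1 between -0.45 and 0.089, COL4A1 between -0.66 and 0.44, COL1A2 between -0.11 and 0.66, COL4A5 between -0.49 and 0.22, COL9A2 between -0.46 and 0.019, COL9A3 between -0.45 and 0.34, FBLN1 between -0.025 and 0.45 and FN1 between -0.016 and 0.13. The ERCC values move with the scaling itself. For the others the cause was not tested. Counts limit what can be said of TNC, COL11A1, LAMB3 and the chains at or near 0.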
